A study of Mus musculus with 7 samples.

Results

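Skeletal muscle genes were read in the palatal shelves of mouse embryos, the paired outgrowths that form the roof of the mouth. The set is a named list of 34 genes covering muscle transcription factors, sarcomere proteins, desmin and alpha-B-crystallin, and proteins of the muscle membrane and its calcium store. A member was found through the gene symbol of its probe in the platform annotation, and probe IDs that repeated the same signal counted once. Of the 34 genes, 29 had a probe, read by 41 probe IDs that gave 29 distinct signals among 18116 on the array. Myh3, Tnnt2, Neb, Klhl41 and Mybph have no probe in the annotation used here. A signal counted as detected when its mean over all arrays lay above the 40th percentile of all signals (5.86 log2 units), and 22 members passed among 10869 detected signals. That filter used the mean over both groups and no difference between them, yet a signal can pass it through the group where it is high.

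The tissue came from 4 Adamts9+/-:bt/bt embryos and 3 wild-type embryos, all at E13.75 and all labelled C57BL/6. The mutants are heterozygous for a mutant Adamts9 allele and homozygous for the belted (bt) allele of Adamts20, and both genes encode secreted proteases that cut the matrix proteoglycan versican. The labels name no Cre or tissue restriction, so muscle carries these alleles too. Each embryo gave 1 Illumina array from 250 ng of RNA, and the shelves were taken straight to RNA extraction with no sorting of cells. Values are log2 units of the authors' normalized table, and differences are mutant minus wild type on that log2 scale.

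Skeletal muscle of the head forms from mesoderm beside and in front of the somites, under upstream regulators that differ from those of the trunk, and then uses the same MyoD family factors. Myod1 and Myf5 commit cells to the muscle lineage, and Myog drives their fusion into fibres. These factors bind E boxes in the promoters of sarcomere genes, often beside sites for MEF2 proteins and serum response factor. The sarcomere then assembles from thick filaments of myosin, thin filaments of actin, tropomyosin and troponin, and the giant protein titin. In the palate, muscle belongs to the soft palate at the back, so the muscle content of dissected shelves can vary with the place of the cut. In bulk tissue, fewer muscle cells and less RNA per muscle cell cannot be told apart.

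Muscle genes were read on every array, and most of their variation lay between single embryos. Mutant replicate 2 was the highest array and wild-type replicate 2 the lowest for all 14 detected genes of the thick and thin filaments. Their mean level was 9.49, 10.18, 9.53 and 9.56 in the mutant arrays, against 9.50, 8.15 and 9.55 in the wild-type arrays. The other 3 mutant arrays and the other 2 wild-type arrays thus lay within a narrow band, and the 2 arrays numbered 2 stood apart on opposite sides of it. Between these 2 arrays the filament genes differed by 4.09-fold on average. Des and Mef2c passed the test between genotypes and were higher in the mutants, while Myod1, Myog and each filament gene did not pass. Of 17 alternative fits, Des passed in 8 and Mef2c in 6, and both calls were lost when raw log2 intensities were centred on each array's median (0.50, adjusted p = 0.113 for Des and 0.15, adjusted p = 0.441 for Mef2c).

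**Figure D1:**
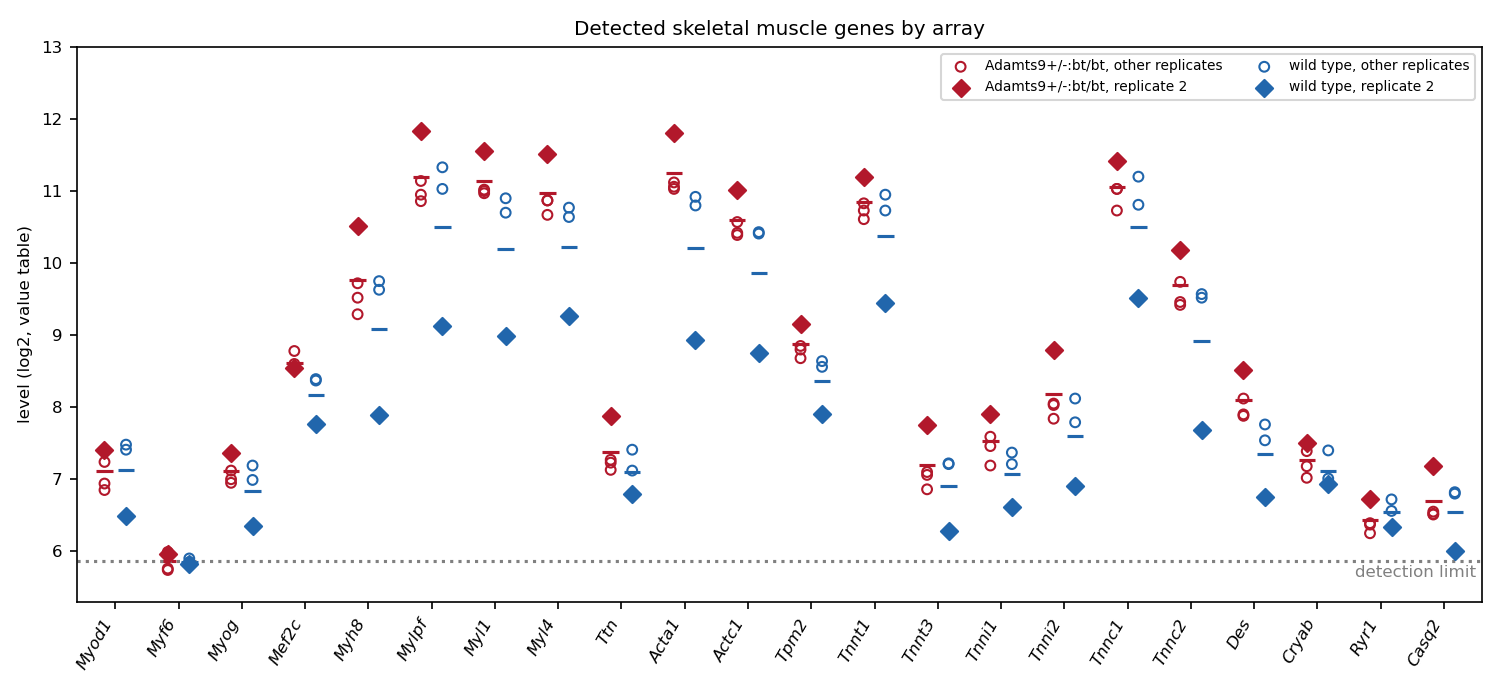
Level of each detected skeletal muscle gene in log2 units of the authors' table (vertical axis), with 1 point per embryo, the mutant points left of the wild-type points for each gene and a bar at each group mean. Wild-type replicate 2 is the lowest point of 20 of the 22 genes and mutant replicate 2 the highest of 19.

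The muscle transcription factors comprised 7 genes, of which 4 were detected. Pax3 and Pax7, which mark muscle progenitors of the trunk and limbs, and Myf5 lay under the detection limit. Their values ran between 5.48 and 5.80 over all 7 arrays, at a level where an array gives no measure of expression. Mef2c, a MEF2 family factor that acts with the MyoD family in differentiating muscle and is also made in neural crest, heart and endothelium, stood at 8.53, 8.54, 8.78 and 8.60 in the mutant arrays, against 8.37, 7.76 and 8.39 in the wild-type arrays. The groups did not overlap, although the lowest mutant array lay only slightly above the highest wild-type array. The difference was 0.44 (1.36-fold, SE 0.15, 95% interval 0.10 to 0.78, limma adjusted p = 0.0458), and the exact permutation p was 0.0286. The exact two-sided value is the smallest that 35 splits of 4 and 3 arrays can give.

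Myod1, the commitment factor, read 6.85, 7.41, 7.24 and 6.94 in the mutant arrays, against 7.41, 6.49 and 7.48 in the wild-type arrays. Wild-type replicate 2 was the lowest of the 7, but the other wild-type arrays were at or above every mutant array. The group means did not differ beyond their spread (difference -0.02, SE 0.24, 95% interval -0.55 to 0.52, adjusted p = 0.965). Myog, which drives terminal differentiation, gave 6.95, 7.36, 7.12 and 7.0 in the mutants, against 6.99, 6.35 and 7.19 in wild type, and the groups overlapped (difference 0.26, SE 0.19, 95% interval -0.16 to 0.68, adjusted p = 0.31). Myf6, which acts late in fibre maturation, was close to the detection limit. Its values were 5.99, 5.96, 5.74 and 5.76 in the mutants, against 5.85, 5.82 and 5.90 in wild type. No group difference was measured for it (difference 0.01, adjusted p = 0.946).

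Promoters are shown for the factor that drives differentiation and for 3 structural genes, since members of the set moved together from array to array. Each sequence is the 250 bases before the annotated gene start in the RefSeq table of GRCm38.p6, on the plus strand, 5′ to 3′, with capitals marking the motifs searched. They lie at chr1:134289754-134290003 for Myog, chr1:75360042-75360291 for Des, chr7:127211358-127211607 for Mylpf and chr11:67276874-67277123 for Myh8. In the Myog, Des and Mylpf promoters the capitals mark E boxes, and in Myh8 they mark a MEF2 site followed by an E box.
Myog: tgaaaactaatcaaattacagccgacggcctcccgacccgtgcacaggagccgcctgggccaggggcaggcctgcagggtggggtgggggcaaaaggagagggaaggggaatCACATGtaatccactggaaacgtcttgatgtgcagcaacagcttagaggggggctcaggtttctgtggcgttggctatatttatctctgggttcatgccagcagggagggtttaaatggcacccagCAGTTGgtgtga
Des: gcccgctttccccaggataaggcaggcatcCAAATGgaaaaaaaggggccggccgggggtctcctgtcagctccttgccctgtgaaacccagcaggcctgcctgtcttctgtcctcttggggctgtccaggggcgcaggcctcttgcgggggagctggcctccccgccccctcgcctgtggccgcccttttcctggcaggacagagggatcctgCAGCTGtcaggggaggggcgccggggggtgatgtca
Mylpf: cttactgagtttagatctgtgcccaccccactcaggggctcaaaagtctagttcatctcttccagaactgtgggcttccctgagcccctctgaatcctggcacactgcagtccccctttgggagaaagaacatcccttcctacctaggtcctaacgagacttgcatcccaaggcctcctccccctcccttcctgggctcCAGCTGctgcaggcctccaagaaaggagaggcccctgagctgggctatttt
Myh8: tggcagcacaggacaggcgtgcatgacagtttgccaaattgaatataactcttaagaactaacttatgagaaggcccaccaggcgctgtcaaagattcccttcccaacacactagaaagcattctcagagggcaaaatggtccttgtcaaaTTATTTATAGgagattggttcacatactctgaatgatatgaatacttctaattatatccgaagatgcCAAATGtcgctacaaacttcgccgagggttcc

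The motifs searched were the E box CANNTG, its form CAGCTG (a subset of the first), the MEF2 site YTAWWWWTAR and the CArG box CCWWWWWWGG bound by serum response factor. Here N is any base, Y is C or T, R is A or G, and W is A or T. Only exact matches were marked and counted. The run ctatatttat in the Myog promoter differs from the MEF2 pattern in its last base and was left unmarked. Each pattern is its own reverse complement, so 1 scan covers both strands. Promoters were found for 27 of the 34 members, and for 17 of the 22 detected ones. A gene with several promoter windows counted once, as matched if any window held the motif. An E box lay in 14 of those 17 (82.4%), against 69.3% of all 27025 genes with a promoter. The CAGCTG form lay in 6 of 17 (35.3%), against 14.7% of all. A MEF2 site lay in 3 (17.6%, against 3.42% of all) and a CArG box in 2 (11.8%, against 1.62% of all). A match is a run of letters in this window and does not show that a factor binds there.

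Among thick filament genes, the myosin heavy and light chains and titin, 5 of 6 members with a probe were detected. Myh8, the perinatal myosin heavy chain, read 9.72, 10.52, 9.29 and 9.52 in the mutants, against 9.75, 7.89 and 9.63 in wild type. Mylpf, the regulatory light chain of fast fibres, read 10.95, 11.83, 10.86 and 11.14 in the mutants, against 11.03, 9.13 and 11.33 in wild type. In both genes the arrays other than replicate 2 overlapped between the genotypes, and the group difference did not pass (0.67, SE 0.45, adjusted p = 0.279 for Myh8 and 0.70, SE 0.48, adjusted p = 0.292 for Mylpf). Myl1, the alkali light chain of fast fibres, read 11.02, 11.56, 11.00 and 10.97 in the mutants, against 10.70, 8.99 and 10.90 in wild type. Its groups did not overlap (exact permutation p = 0.0286), yet its difference of 0.94 (SE 0.40, 95% interval 0.02 to 1.85) did not pass after adjustment over all signals (adjusted p = 0.101). Myl4, the light chain of embryonic muscle and heart atrium, read 10.87, 11.51, 10.87 and 10.67 in the mutants, against 10.64, 9.26 and 10.77 in wild type. It overlapped between groups only where mutant replicate 4 lay below wild-type replicate 3 (difference 0.76, SE 0.35, adjusted p = 0.124). Ttn, which encodes titin, gave 7.13, 7.88, 7.27 and 7.23 in the mutants, against 7.41, 6.79 and 7.12 in wild type, with overlapping groups (difference 0.27, adjusted p = 0.311). Myh7, the slow and cardiac myosin heavy chain, was under the detection limit at 5.80, 6.03, 5.79 and 6.02 in the mutants, against 5.78, 5.76 and 5.74 in wild type. These values do not overlap, but at this level they bear no fold.

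The thin filament was represented by 9 detected genes of 9 with a probe. Acta1, skeletal alpha-actin, read 11.06, 11.80, 11.12 and 11.03 in the mutants, against 10.92, 8.93 and 10.80 in wild type. Every mutant array lay above every wild-type array, by a small margin outside the arrays numbered 2 (difference 1.04, SE 0.44, 95% interval 0.04 to 2.03, exact permutation p = 0.0286, adjusted p = 0.0963). Actc1, the cardiac alpha-actin that embryonic skeletal muscle also makes, read 10.39, 11.02, 10.57 and 10.42 in the mutants, against 10.41, 8.75 and 10.43 in wild type. Here the arrays other than replicate 2 lay together in both groups (difference 0.74, SE 0.38, adjusted p = 0.16). Tpm2, beta-tropomyosin, read 8.68, 9.16, 8.85 and 8.80 in the mutants, against 8.56, 7.91 and 8.64 in wild type. Its groups did not overlap, and its difference of 0.50 (SE 0.18, 95% interval 0.09 to 0.90) fell short of the threshold after adjustment (adjusted p = 0.0564).

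Troponin couples calcium to contraction through a tropomyosin-binding subunit, an inhibitory subunit and a calcium-binding subunit, each with slow and fast fibre forms. Tnnt1, the slow tropomyosin-binding subunit, read 10.61, 11.20, 10.83 and 10.73 in the mutants, against 10.73, 9.44 and 10.95 in wild type. Tnnt3, its fast counterpart, read 7.10, 7.75, 6.86 and 7.06 in the mutants, against 7.22, 6.28 and 7.21 in wild type. Both overlapped between groups, and neither difference passed (0.47, adjusted p = 0.288 and 0.29, adjusted p = 0.438). Tnni1, the slow inhibitory subunit, read 7.19, 7.90, 7.59 and 7.46 in the mutants, against 7.21, 6.62 and 7.37 in wild type. Tnni2, the fast form, read 8.05, 8.79, 7.84 and 8.03 in the mutants, against 8.12, 6.91 and 7.79 in wild type. The differences of the inhibitory subunits were 0.47 (adjusted p = 0.0989) and 0.57 (adjusted p = 0.169), with overlapping groups in both. Tnnc1, the slow and cardiac calcium sensor, read 10.73, 11.42, 11.03 and 11.03 in the mutants, against 10.81, 9.51 and 11.20 in wild type. Tnnc2, the fast sensor, read 9.42, 10.18, 9.46 and 9.74 in the mutants, against 9.52, 7.68 and 9.57 in wild type. These differed by 0.55 (adjusted p = 0.255) and 0.78 (adjusted p = 0.188). Slow and fast forms thus shared the order of the extreme arrays, and 0 troponin genes passed.

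Des encodes desmin, the intermediate filament that ties sarcomeres to each other and to the membrane, and is also made in smooth muscle and pericytes. It read 7.90, 8.51, 8.12 and 7.88 in the mutants, against 7.54, 6.76 and 7.76 in wild type. All mutant arrays were above all wild-type arrays, and again the arrays numbered 2 lay at the ends. The difference was 0.75 (1.68-fold, SE 0.24, 95% interval 0.21 to 1.28, exact permutation p = 0.0286, adjusted p = 0.0358). Without wild-type replicate 2 it was 0.45 (adjusted p = 0.0883), and the call was also lost without wild-type replicate 1, mutant replicate 2 or mutant replicate 3 (adjusted p = 0.0593, 0.0819 and 0.0776). The Mef2c call was lost without wild-type replicate 2, where the difference was 0.23 (adjusted p = 0.0843), and without any of the mutant replicates (adjusted p from 0.0678 to 0.114). Cryab, alpha-B-crystallin, a chaperone that binds desmin and actin, gave 7.39, 7.50, 7.02 and 7.18 in the mutants, against 7.40, 6.93 and 7.01 in wild type, and did not pass (difference 0.16, adjusted p = 0.409).

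At the membrane and the calcium store, 2 of 5 members were detected. Cav3, the muscle caveolin, Ckm, muscle creatine kinase, and Musk, the receptor kinase that organises the neuromuscular junction, were under the limit, with values between 5.46 and 5.85 on all arrays. Ryr1, the calcium release channel of the sarcoplasmic reticulum, read 6.25, 6.73, 6.39 and 6.37 in the mutants, against 6.72, 6.34 and 6.56 in wild type. Unlike the filament genes, it was not lowest in wild-type replicate 2 (difference -0.11, SE 0.13, adjusted p = 0.548). Casq2, a calsequestrin that binds calcium in that store, read 6.51, 7.19, 6.55 and 6.52 in the mutants, against 6.82, 6.00 and 6.80 in wild type. Apart from the arrays numbered 2, the wild-type values of both genes lay above the mutant values, while the group difference of Casq2 was 0.15 (SE 0.23, adjusted p = 0.646).

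**Figure D2:**
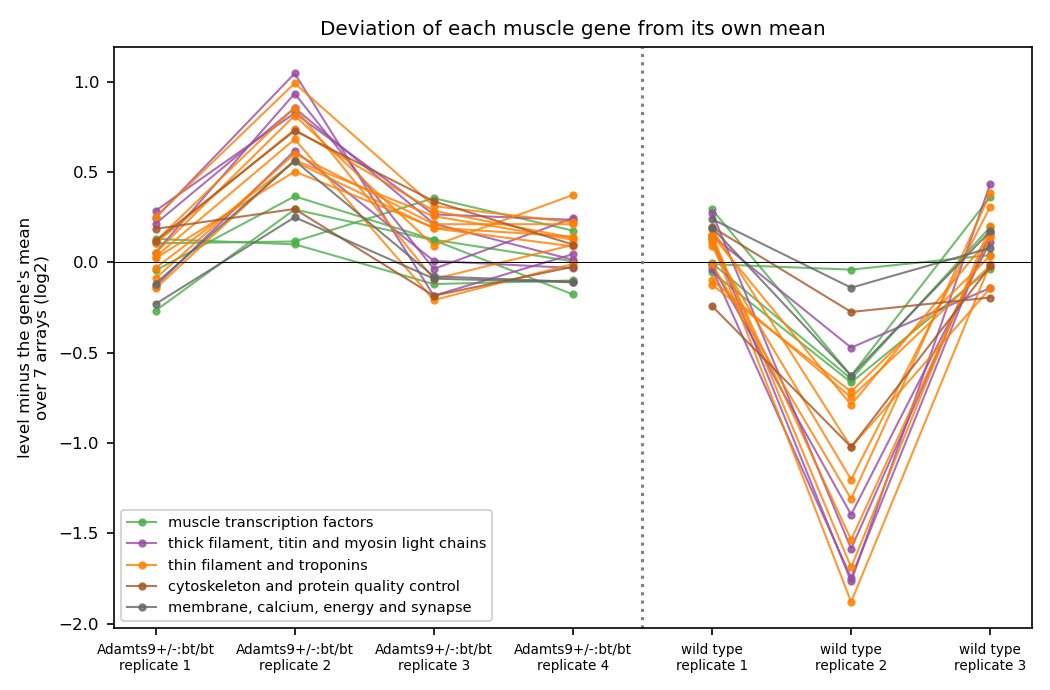
Profile of each detected skeletal muscle gene across the 7 arrays, plotted as the level minus that gene's mean over all arrays (log2 units, vertical axis) with mutant arrays on the left and wild-type arrays on the right. Most lines have their highest point at mutant replicate 2, where the filament gene mean reaches 10.18, and their lowest at wild-type replicate 2, where it is 8.15.

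The order of the arrays was shared by nearly all detected members. Wild-type replicate 2 was the lowest of the 7 arrays for 20 of 22 members, against 18.4% of all detected signals, and mutant replicate 2 was the highest for 19, against 10.7%. Both held for 18 members, against 4.22% of all signals. Wild-type replicate 2 was also the highest array for 23.9% of all signals, the largest share of any array, and for 0 members. In the filament genes wild-type replicate 2 lay 0.33 to 1.90 below the lower of the other wild-type arrays, and mutant replicate 2 lay 0.31 to 0.80 above the next mutant array. The wild-type range of levels exceeded 1 log2 unit for 11 of 22 members, against 1.74% of all signals. Within the mutants the range exceeded 0.5 for 16 of 22, against 5.1%. The median SD within a group was 0.29 in the mutants (0.09 over all signals) and 0.55 in wild type (0.10 over all signals). The replicates are separate embryos, and the sources used here do not say how the cut was placed in each, so the part of the dissection in this spread was not tested.

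Set against that spread, 2 of the 22 detected members passed as higher in the mutants, against 16.8% of all detected signals, and 0 passed as lower, against 19.8% (limma, adjusted p threshold 0.05). At an unadjusted p under 0.05, 6 members were higher and 0 were lower, against 21.6% and 24.5% of all signals. All mutant arrays lay above all wild-type arrays for 5 detected members, Mef2c, Myl1, Acta1, Tpm2 and Des, against 19.7% of all signals, and below them for 0, against 22.9%. A difference above 0 was measured for 20 members and one below 0 for 2, with a median of 0.49, beside a median of 0.00 over all signals. These signs are not separate evidence, since the members share the 2 arrays that lie at opposite ends. The median SE was 0.25 for the members and 0.08 over all signals, and the 95% interval of 11 members reached above 1, a doubling. The limited number of passing genes therefore does not show that muscle gene levels were equal in the genotypes.

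**Figure D3:**
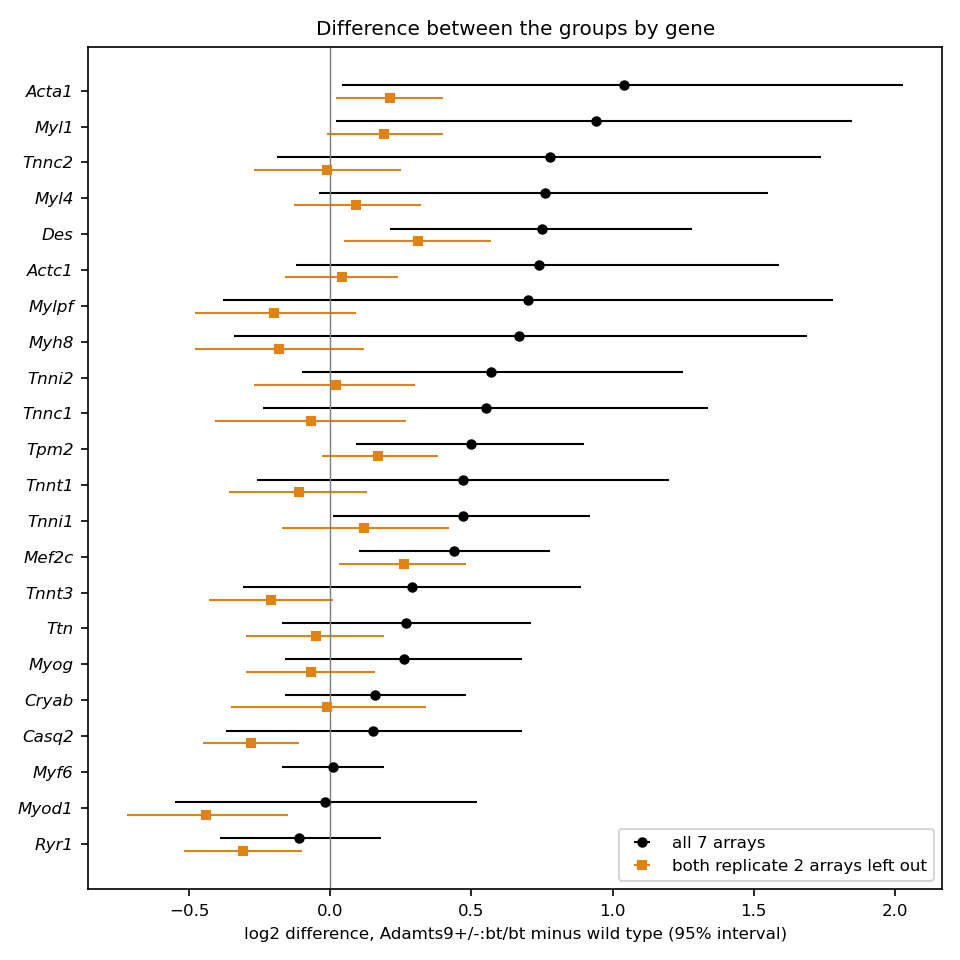
Log2 difference of each detected skeletal muscle gene, mutant minus wild type (horizontal axis), with its 95% interval from limma on all 7 arrays and, beneath it, the value and interval with both arrays numbered 2 left out (Myf6 was not detected there). With all arrays 20 of 22 differences lie above 0 and the interval of 11 reaches above 1, while the values without these arrays lie on both sides of 0.

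The differences were also computed with both replicate 2 arrays left out, a choice made after their values were seen. On the remaining 3 mutant and 2 wild-type arrays, 21 members were detected, with 9 differences above 0 and 12 below and a median of -0.01. The filament genes then lay between -0.21 and 0.21. In that comparison 0 members passed as higher, against 10.6% of all signals, and 3 passed as lower, against 13.2%. The 3 were Myod1 (-0.44, SE 0.12, adjusted p = 0.0384), Ryr1 (-0.31, SE 0.09, adjusted p = 0.0444) and Casq2 (-0.28, SE 0.07, adjusted p = 0.0311). The arrays left out were chosen because they lay at the ends for most members. That choice removes spread within the groups, so these adjusted p values are too small and do not serve as tests of these genes. The Des difference was then 0.31 (adjusted p = 0.082) and that of Mef2c 0.26 (adjusted p = 0.0931).

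All 7 arrays were kept in a second fit, also chosen after the values were seen, in which the mean of the filament genes entered as a covariate. Only genes outside the filament set were read from it. Myod1 was lower in the mutants at a given filament level (-0.44, SE 0.11, adjusted p = 0.0201), in a fit where 14.3% of all signals passed as lower and 11.6% as higher. Ryr1 (-0.29, adjusted p = 0.0693), Casq2 (-0.26, adjusted p = 0.0827), Des (0.32, adjusted p = 0.0554), Mef2c (0.23, adjusted p = 0.227) and Myog (-0.07, adjusted p = 0.58) did not pass. The 2 fits share arrays and are not independent of each other, and in the second the 2 arrays numbered 2 have the extreme values of the covariate. The adjusted p values of the second fit make no allowance for its choice after the values were seen.

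Genes of the wider muscle programme were read from 3 further lists, of other sarcomere genes, of membrane, excitation and neuromuscular junction genes, and of muscle metabolism and chaperone genes. They name 97 genes, of which 82 have a probe and gave 60 detected signals. Here 3 signals passed as higher and 0 as lower, 5% in all, against 36.6% of all signals called in either direction, with a median difference of 0.09. Wild-type replicate 2 was lowest for 40 of the 60, against 18.4% of all signals, and mutant replicate 2 highest for 36, against 10.7%. Both held for 30, against 4.22%.

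The 3 genes that passed differed in how they varied among arrays. Tpm3, the slow tropomyosin that many other cell types also make, read 8.91, 8.91, 8.98 and 9.00 in the mutants, against 6.49, 6.28 and 8.48 in wild type. Wild-type replicate 3 lay close to the mutants and the other wild-type arrays far below (difference 1.86, adjusted p = 0.0107). Against wild-type replicate 3 alone the Tpm3 difference was 0.47, a value with no wild-type spread behind it, and with both replicate 2 arrays left out it was 1.48 (adjusted p = 0.0654). Atp2a2, the slow and cardiac calcium pump, also made outside muscle, read 9.22, 9.52, 9.39 and 9.36 in the mutants, against 8.75, 8.54 and 8.84 in wild type (adjusted p = 0.000759). Fabp3, a fatty acid carrier of muscle and heart, read 7.85, 8.04, 7.96 and 7.97 in the mutants, against 7.47, 6.86 and 7.47 in wild type (difference 0.69, SE 0.14, adjusted p = 0.00567). Atp2a2 and Fabp3 passed in all 17 alternative fits.

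Other genes of these lists are given for their array pattern, and were chosen after their values were seen. Atp2a1, the fast calcium pump, read 9.20, 9.84, 9.22 and 9.11 in the mutants, against 8.83, 7.59 and 9.20 in wild type (difference 0.80, adjusted p = 0.0998). Chrng, the fetal subunit of the muscle acetylcholine receptor, read 8.45, 9.17, 8.65 and 8.55 in the mutants, against 8.51, 7.18 and 8.69 in wild type (difference 0.58, adjusted p = 0.214). Both followed the filament genes, with the arrays numbered 2 at the ends. Actn2, the alpha-actinin of the Z disc, read 8.84, 9.60, 8.74 and 8.82 in the mutants, against 9.59, 8.03 and 9.52 in wild type. Here the wild-type arrays other than replicate 2 matched mutant replicate 2 and lay well above the other mutants. The Actn2 difference was -0.05 (SE 0.37, adjusted p = 0.938) on all arrays. With both replicate 2 arrays left out it was -0.76 (SE 0.08, adjusted p = 0.00132), and with the filament mean as a covariate -0.75 (SE 0.08, adjusted p = 0.00061). Actn2 and both of these fits were chosen after the values were seen, so these adjusted p values do not serve as tests. With each array left out in turn, the Actn2 difference ranged from -0.56 to 0.23.

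**Figure D4:**
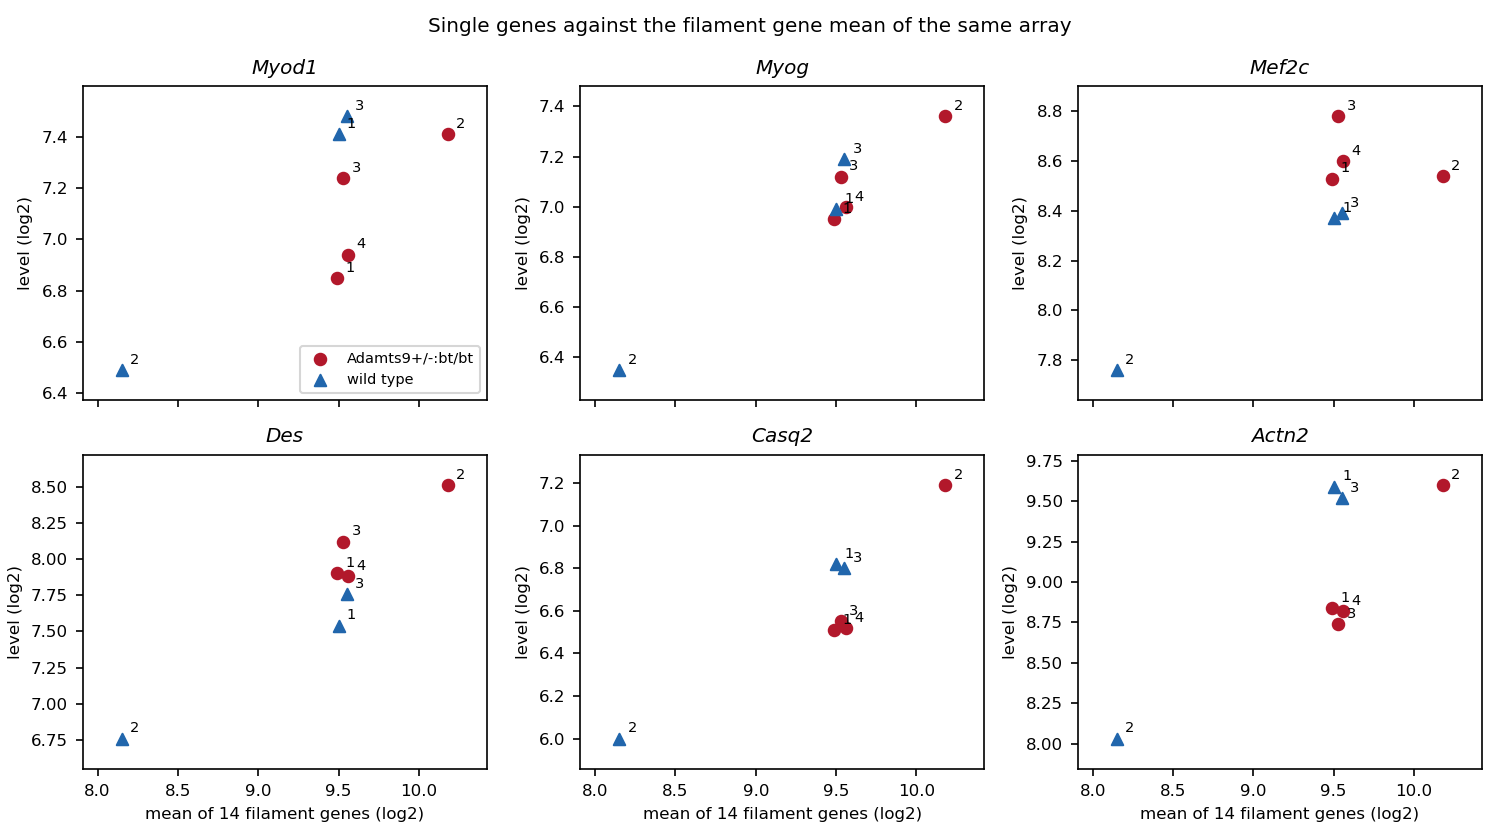
Level of Myod1, Myog, Mef2c, Des, Casq2 and Actn2 (vertical axes, log2 units) against the mean level of the 14 detected filament genes (horizontal axes, log2 units). Each point is 1 embryo marked with its replicate number. Wild-type replicate 2 (8.15) and mutant replicate 2 (10.18) are the ends of the horizontal axis, and between them the Actn2 values fall into a higher pair of wild-type arrays (9.59 and 9.52) and 3 lower mutant arrays (8.74 to 8.84).

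Among 10 detected upstream regulators of head and limb muscle, 0 passed as higher, against 16.8% of all signals, and 1 as lower, against 19.8%. That gene, Six4, a homeobox factor upstream of the MyoD family, read 5.86, 5.81, 5.82 and 5.98 in the mutants, against 6.21, 6.51 and 6.21 in wild type. Its groups did not overlap (difference -0.44, SE 0.09, adjusted p = 0.00464), and its mutant values lay at the detection limit, where an array compresses differences. Msc, a bHLH factor of branchial arch muscle, read 8.60, 9.02, 8.60 and 8.15 in the mutants, against 8.17, 6.70 and 8.07 in wild type. It had the array order of the filament genes at the extremes and fell short of the threshold (difference 0.94, adjusted p = 0.0583).

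Because several members are shared with heart or smooth muscle, markers of those tissues were read beside them. Of 11 heart markers with a probe 3 were detected and 0 passed, and the defining genes Myh6, Myl7, Nppa, Myl2 and Tnni3 were under the limit. Myl3, a light chain of slow skeletal muscle and heart ventricle that was named after its values were seen, read 5.99, 6.67, 6.27 and 6.01 in the mutants, against 5.89, 5.71 and 5.87 in wild type (difference 0.41, SE 0.15, adjusted p = 0.0627). Its groups did not overlap, and the arrays numbered 2 were its ends. The wild-type mean of Myl3, 5.82, was under the detection limit. Nkx2-5 and Gata4, the other detected markers, lay between 5.74 and 6.02 on all arrays. The 3 detected heart markers averaged 5.89 to 6.13 per mutant array and 5.88 to 5.92 per wild-type array, close to the limit of 5.86. Smooth muscle markers gave 6 detected signals, with 0 higher and 3 lower in the mutants (19.8% of all signals were lower), Smtn (-0.90, adjusted p = 0.000153), Mylk (-0.49, adjusted p = 0.0158) and Myh11 (-0.23, adjusted p = 0.0214). Myh11 lay near the limit, at 5.82, 5.73, 5.89 and 5.73 in the mutants, against 6.03, 6.02 and 6.00 in wild type. Its mutant mean of 5.79 was under the limit, so Myh11 counted as detected through its wild-type mean of 6.02. The count of 3 thus includes a signal that passed the filter through the group where it is high. It passed in 8 of 15 alternative fits. Tagln, Cnn1 and Myocd were under the limit. Acta2, smooth muscle alpha-actin, which early skeletal muscle also makes, was named after its values were seen. Both of its signals were lowest in wild-type replicate 2 and highest in mutant replicate 2, and 1 of them read 9.04, 9.65, 9.45 and 9.15 in the mutants, against 8.09, 7.19 and 9.37 in wild type (difference 1.11, SE 0.42, adjusted p = 0.0683). The other, brighter signal read 12.01, 12.46, 12.10 and 11.93 in the mutants, against 12.14, 11.12 and 12.16 in wild type. Its difference was smaller (0.32, SE 0.24, adjusted p = 0.345). The smooth muscle list averaged 7.98 to 8.17 per mutant array and 7.82 to 8.31 per wild-type array. Tendon markers averaged 6.83 to 6.95 per mutant array and 6.90 to 7.03 per wild-type array, with 1 of 5 lower (Fmod) and 0 higher. Fmod was also near the limit, at 5.81, 5.77, 5.74 and 5.85 in the mutants, against 6.29, 6.06 and 5.93 in wild type. All of its mutant values were under the limit, so Fmod counted as detected through its wild-type mean of 6.09. It passed in 9 of 14 alternative fits.

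The counts of passing markers of these and the next lists stand beside 16.8% of all signals called as higher and 19.8% as lower. Neuron markers passed as higher in the mutants for 12 of 13 detected genes, with array means of 8.74 to 9.20 in the mutants and 6.78 to 7.63 in wild type, and wild-type replicate 2 was lowest for 11. That array was therefore lowest for neuron markers as well as for muscle genes, whereas mutant replicate 2 was highest for only 2 neuron markers. Endothelial markers (4 of 7) and palatal mesenchyme markers (4 of 12) passed as lower, with means of 7.54 to 7.84 and 8.39 to 8.62 in the mutants, against 8.03 to 8.32 and 8.77 to 8.86 in wild type. Among 8 cartilage markers 1 passed, Col2a1, the main collagen of cartilage, which was lower in the mutants (-1.60, SE 0.39, adjusted p = 0.0117), and among 8 epithelial markers 1 passed, Cdh1, E-cadherin, which was higher (0.58, SE 0.09, adjusted p = 0.00173). Cartilage markers averaged 7.23 to 7.88 in the mutants and 7.19 to 8.27 in wild type, and epithelial markers 8.24 to 8.76 in the mutants and 8.43 to 8.73 in wild type. The part of these tissue lists in the muscle gene values was not tested.

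**Figure D5:**
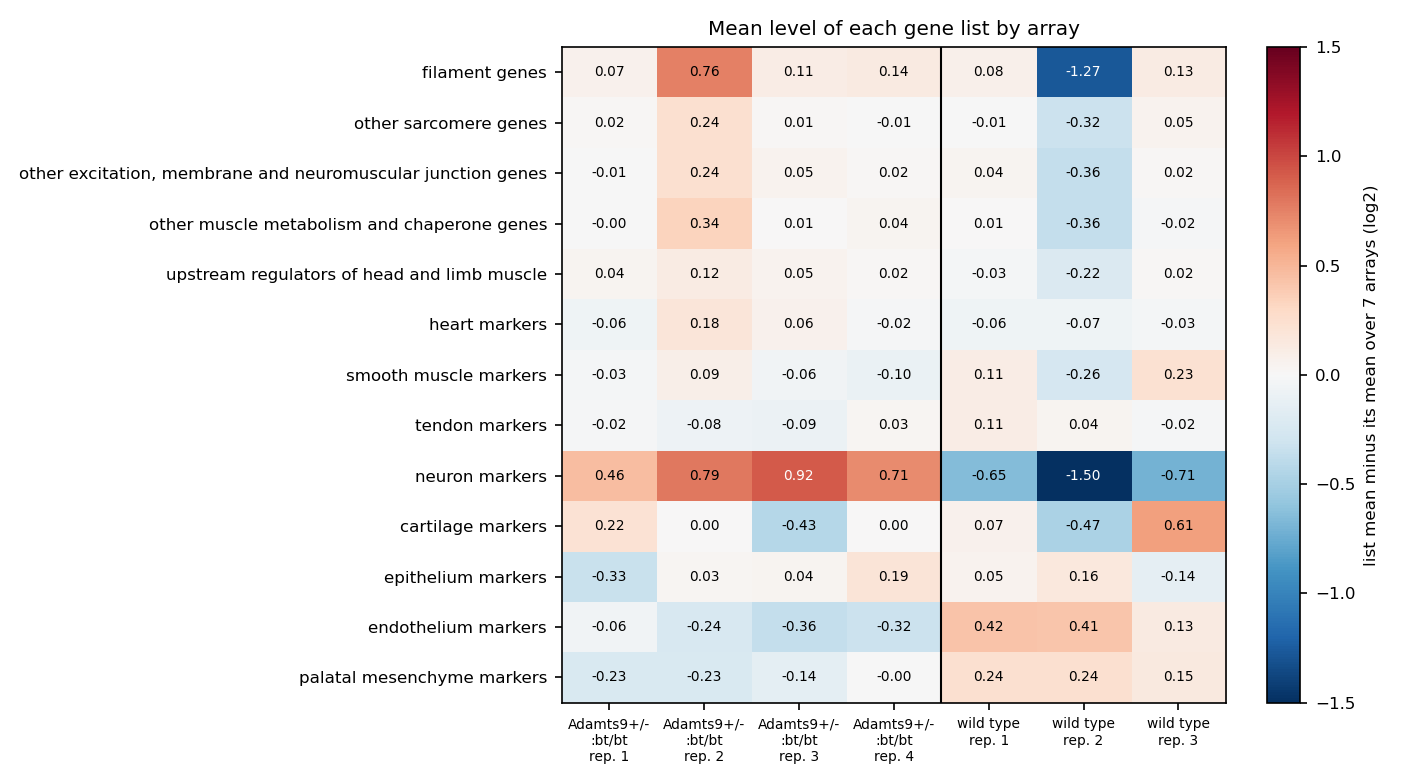
Mean level of the detected genes of each list on each array, minus the mean of that list over all 7 arrays (log2 units, colour and printed value), with mutant arrays left of the wild-type arrays. The filament genes peak in mutant replicate 2 and are lowest in wild-type replicate 2, while the neuron markers separate the genotypes, with array means of 8.74 to 9.20 in the mutants and 6.78 to 7.63 in wild type.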

How the data were processed

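Per the labels' protocols, RNA from the palatal shelves of separate embryos was labelled with a biotin cRNA kit and read on 1 Illumina array per embryo. The authors deposited a linear probe intensity for each array, not normalized between arrays (median 64.3 to 72.1). They also deposited a log2 table of the same arrays, in which every array has a median of 6.07 and the ranks within each array equal those of the intensities. How it was normalized, and the scanner software, slides and scan dates, were not stated by any source used. The log2 table was used. Of 25695 probe IDs, 23976 have 1 gene symbol in the platform annotation, 0 have several and 1719 have none. The GRCm38 gene table held 23960 of these IDs by gene. Probe IDs with identical values were joined, giving 18116 signals.

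Signals whose mean over the 7 arrays lay above the 40th percentile were compared with limma 3.58.1 in R 4.3.3 (lmFit and eBayes, two-sided), with Benjamini-Hochberg adjustment over 10869 signals and a threshold of 0.05. Exact two-sided permutation tests used the absolute difference of means over 35 splits (Python 3.11.15, scipy 1.17.1). On simulated data with 10869 signals the fit recovered 74% of changes of 0.5 log2 units, 96% of 1 and 100% of 2, with 7.58% false among 198 calls. The changed signals were drawn at random from all detected ones, and noise was independent between signals. These rates therefore describe signals of typical spread (median SE 0.08). They were not measured for the members (median SE 0.25), whose deviations are shared through the same arrays. No set test was run. Precision is limited by the number of arrays.

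Every member was named. Transcription factors, members past the threshold and members with a within-group range over 1 log2 unit were to have each array's value, and other genes were named from the lists where they passed. For the other cell types the rule took at most 3 passing genes per list with the smallest p, and defining markers near the floor. The members and lists were chosen with earlier results of these data known. Alternatives were background correction with normexp (offset 50) and quantile normalization, median centring, other filters, a variance trend, the replicate number as a block, leaving out each array, wild-type replicate 3 alone as the comparator, and 1 signal per gene. Leaving out both replicate 2 arrays and a covariate for the filament mean were added after seeing the data. Slide as a block could not be tried without slide labels.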

Additional observations from a re-analysis of the deposited data

Results flagged for a closer look

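Mutant replicate 2 lay apart from the other mutant arrays, which were close together, by Dixon's test at the 95% level for 4 arrays. Acta1 read 11.80 there, against 11.03 to 11.12 in the other mutant arrays. Myl1 read 11.56, against 10.97 to 11.02. Casq2 read 7.19, against 6.51 to 6.55. The mean of the filament genes was 10.18, against 9.49 to 9.56. These are 4 of 23 values tested in the mutants, beside 5.17% of all detected signals, and chance alone flags about 1 in 20. The 4 values share the array and are not separate events. The wild-type group of 3 arrays is too small for this test, so the distance of wild-type replicate 2 was not tested.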

How the results depend on the processing

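The count of members higher in the mutants, 2 on all arrays, was 2 with normexp and quantile normalization, with a filter at the 60th percentile, with a variance trend and with 1 signal per gene. It was 1 with no filter (9.8% of all signals higher), 0 with median centring (7.6%), 0 against wild-type replicate 3 alone (6.96%) and 0 with both replicate 2 arrays left out (10.6%), and ranged from 0 to 8 when each array was left out in turn. The 8, found without wild-type replicate 3, where 18.6% of all signals were higher, were Mef2c, Tpm2, Tnnc1, Myl4, Myl1, Acta1, Des and Tnni1. The count lower was 0 in all of these fits except with both replicate 2 arrays left out (3). The Des difference lay between 0.31 and 0.95 and passed in 8 of 17 alternatives (adjusted p from 0.00992 to 0.359), and that of Mef2c lay between 0.15 and 0.55 and passed in 6 of 17 (adjusted p from 0.0191 to 0.441). Both calls were lost with median centring (Des 0.50, adjusted p = 0.113; Mef2c 0.15, adjusted p = 0.441). That scaling moved the median of all signals to -0.14 and that of the members to 0.23, which is 0.37 relative to all signals. It changed the calls over all signals to 826 higher and 3931 lower, against 1829 and 2148, so 17.4% of calls were higher, against 46%.

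The median difference of members ranged from 0.11 to 0.65 with each array left out. It was -0.01 with both replicate 2 arrays left out. With the replicate number as a block, 0 members were higher, against 11.5% of all signals (Des 0.82, adjusted p = 0.0858; Mef2c 0.45, adjusted p = 0.0521), and Myod1 and Actn2 turned to 0.04 and 0.01. Same-numbered arrays had correlations of deviations of -0.197, -0.159 and 0.0637, within the range of -0.197 to 0.208 over all pairs of a mutant and a wild-type array. The deviations were centred within small groups of arrays, so these values cannot show whether the numbers pair the embryos. All signals called as higher numbered 757 against wild-type replicate 3 alone and 1156 with both replicate 2 arrays left out, and those called as lower 990 in the first of these. In both, fewer arrays enter the fit.

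Direction turned for genes with small and with larger differences. With each array left out in turn, Myod1 ranged from -0.34 to 0.16, Actn2 from -0.56 to 0.23, Casq2 from -0.11 to 0.29, and Tnnt3 from -0.03 to 0.45. Myf6, detected in 4 of these 7 fits, ranged from -0.01 to 0.05. With median centring Cryab was -0.05. Against wild-type replicate 3 alone, Myf6 was -0.03, Casq2 -0.10, Tnnt1 -0.10, Tnnt3 -0.02, Tnnc1 -0.14, Myog -0.09 and Mylpf -0.13. With both replicate 2 arrays left out, Myh8 was -0.18, Casq2 -0.28, Ttn -0.05, Tnnt1 -0.11, Tnnt3 -0.21, Tnnc1 -0.07, Myog -0.07, Chrng -0.05, Cryab -0.01, Tnnc2 -0.01 and Mylpf -0.20. With the filament mean as a covariate, Myf6 was -0.03, Casq2 -0.26, Myog -0.07 and Chrng -0.06. The cause of these turns was not tested. Of 552 values computed under alternatives, 460 kept direction and side of the threshold, 40 lost the threshold or moved, 14 gained it and 38 turned. The 7 undetected members were tested only where the filter kept them. With no filter, Myh7 differed by 0.14 (adjusted p = 0.242) and the others lay between -0.02 and 0.04, at levels near background.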

Other observations

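Among all detected signals, 31 (0.285%) shared a pattern defined after the values were seen. In it, wild-type replicate 2 was lowest, mutant replicate 2 highest, and the range exceeded 1 log2 unit. The other 5 arrays lay in a narrower band with overlapping groups. Mutant replicate 2 did not always stand clear of that band, as Chil1 read 7.16 there, against 7.11 in wild-type replicate 3. Of the 31 signals, 11 are members, 10 are on the 3 further muscle lists, and 22 in all are on any list read here. The 9 others are 2310002L09Rik, Hoxb2, Fam78a, Chil1, Hoxa2, Sypl2, Srpk3, Asb2 and Itgb1bp2. Srpk3, a protein kinase of striated muscle, read 7.58, 8.10, 7.78 and 7.38 in the mutants, against 7.31, 6.57 and 7.45 in wild type. Asb2, a ubiquitin ligase subunit made in muscle, read 7.02, 7.72, 7.03 and 7.02 in the mutants, against 6.79, 6.34 and 7.10 in wild type. Their order of arrays was fixed by how they were chosen.

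Hoxa2, which patterns the second branchial arch, read 6.55, 7.85, 5.90 and 6.01 in the mutants, against 6.04, 5.82 and 6.22 in wild type. Hoxb2 read 5.70, 6.65, 5.89 and 5.89 in the mutants, against 5.72, 5.54 and 5.93 in wild type, and Hoxd8 read 6.01, 6.99, 6.42 and 6.00 in the mutants, against 6.18, 6.14 and 5.97 in wild type. In these genes, mutant replicate 2 stood above arrays that lay near the detection limit, and wild-type replicate 2 did not stand apart to a like degree. Of 39 Hox signals, 9 were detected, and mutant replicate 2 was the highest array for 4 of them, against 10.7% of all signals. The detection filter takes in mutant replicate 2, so a dim signal such as Hoxb2 can pass through its high value there. The count of 4 can be raised in this way. Hoxd1, also highest in mutant replicate 2, read 6.13 there, against 6.09 in mutant replicate 3. Hoxa7, Hoxa13 and Hoxb5 were highest in mutant replicate 3, Hoxc13 in mutant replicate 4 and Hoxd9 in wild-type replicate 2. Mutant replicate 2 was the lowest array for Hoxa7 (5.83).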
